A study of Mus musculus with 32 samples.

Results

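The comparison described here is that of the cerebellum of Tsc2+/- mice, which carry 1 disrupted copy of Tsc2, with the cerebellum of WT mice of the same experiment. Its members were chosen by the genotype and tissue labels, and are 6 of the 32 arrays of the series, 3 from Tsc2+/- and 3 from WT cerebellum, 1 for each mouse. The mice had a mixed 129/SvJae-C57BL/6J background and were killed as young adults. Heterozygous mice were profiled since mice without any Tsc2 die as embryos. Nothing else distinguishes the groups in the labels. The blood of the same 6 mice, and the cerebellum of 5 Fmr1-KO mice and 5 WT mice of a C57BL/6 congenic background, are used below only where an effect is set against theirs. Total RNA was hybridized to Affymetrix Mouse Gene 1.0 ST arrays, and the deposited values are intensities on a linear scale.

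Tsc2 encodes tuberin, which joins hamartin, the product of Tsc1, in a complex that turns off the small GTPase Rheb. Rheb activates the kinase complex mTORC1, which promotes translation, ribosome production and lipid synthesis. People with 1 mutated copy of either gene have tuberous sclerosis, often with epilepsy and autism, and the cerebellum has been a focus of work on autism because of its Purkinje cells. Immediate early genes are genes that neurons transcribe within minutes of synaptic activity or of other stimuli, without the need for new protein. They include Fos, Jun, Npas4, Egr1 and the Nr4a family of transcription factors, and phosphatases such as Dusp1 that end the signal.

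A part of the immediate early genes was lower in Tsc2+/- cerebellum, and Fos had the smallest p of all 19938 genes. Of 31 such genes measured, 8 were lower at an unadjusted p under 0.05, where 1.15% of all genes were, and 5 were lower at an unadjusted p under 0.01, where 0.135% of all genes were. No member was higher at either threshold. The list was chosen with earlier results of these data known, so these shares describe it and are no independent test. The 5 were Fos, Npas4, Dusp1, Nr4a1 and Jun. No gene (0%) passed an adjusted p of 0.05 in the limma fit, which tested 35556 probe sets with Benjamini-Hochberg adjustment. An unadjusted p under 0.05 was reached by 439 genes (2.2%), fewer than the share of 0.05 expected by chance. At an unadjusted p under 0.01 there were 62 genes (0.311%), where 199 were expected by chance. These calls are therefore a ranking and not a list with a controlled error rate.

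The promoters of the 4 genes with the largest differences are shown because activity-dependent transcription of such genes is known to run in part through CREB, a factor that binds the letters TGACG. Each line holds the 250 bases before the transcription start in RefSeq (GRCm38.p6), read on the gene's strand from 5′ to 3′, with TGACG or its complement CGTCA in capitals.
Fos, chr12:85473640-85473889, plus strand: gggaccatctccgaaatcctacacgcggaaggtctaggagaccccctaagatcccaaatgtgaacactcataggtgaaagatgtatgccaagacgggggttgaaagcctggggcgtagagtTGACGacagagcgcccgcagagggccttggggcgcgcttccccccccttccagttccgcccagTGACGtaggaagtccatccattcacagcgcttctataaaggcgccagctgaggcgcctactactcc
Npas4, chr19:4989972-4990221, minus strand: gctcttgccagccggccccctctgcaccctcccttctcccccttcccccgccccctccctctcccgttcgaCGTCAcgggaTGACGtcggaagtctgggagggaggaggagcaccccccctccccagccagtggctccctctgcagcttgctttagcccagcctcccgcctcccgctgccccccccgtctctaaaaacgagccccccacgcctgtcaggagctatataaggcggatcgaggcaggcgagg
Nr4a1, chr15:101266596-101266845, plus strand: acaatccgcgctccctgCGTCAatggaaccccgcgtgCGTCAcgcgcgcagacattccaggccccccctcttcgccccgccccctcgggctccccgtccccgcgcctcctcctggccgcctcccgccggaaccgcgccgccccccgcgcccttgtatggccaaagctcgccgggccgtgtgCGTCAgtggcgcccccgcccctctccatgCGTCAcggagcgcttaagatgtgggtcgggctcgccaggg
Dusp1, chr17:26508473-26508722, minus strand: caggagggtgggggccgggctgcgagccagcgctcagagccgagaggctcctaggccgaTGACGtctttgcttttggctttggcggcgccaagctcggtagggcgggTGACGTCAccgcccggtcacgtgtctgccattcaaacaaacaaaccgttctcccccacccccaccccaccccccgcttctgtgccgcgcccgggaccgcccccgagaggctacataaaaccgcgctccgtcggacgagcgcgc
Fos has the motif at 2 places, Npas4 at 2, Nr4a1 at 4 and Dusp1 at 3, of which 2 overlap in 1 palindrome. The same window of Jun held none. The motif, on either strand, was present in 17.8% of 32841 promoters of this length and in 17 of the 25 measured immediate early genes with a promoter in the table. It was present in 4 of the 6 that were lower at p under 0.05 and in 13 of the other 19. The presence of the letters is a description of the sequence, and the shares were 66.7% and 68.4%.

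Fos, which with Jun forms the AP-1 transcription factor, had intensities of 281, 264 and 269 in the 3 Tsc2+/- mice, against 533, 544 and 597 in the 3 WT mice. The 3 Tsc2+/- values lay close together and all were below the lowest WT value. The log2 difference was -1.04 (standard error 0.11), a 2.06-fold lower level, with a limma adjusted p of 0.192. With 3 mice in each group an exact permutation test of single genes cannot go below a two-sided p of 0.1, the value it gave for every gene whose groups did not overlap.

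Npas4, whose transcription follows calcium entry into neurons, had intensities of 103, 101 and 154 in Tsc2+/- cerebellum, against 230, 226 and 298 in WT cerebellum. The groups did not overlap, and mouse 3 was the highest of each group. The log2 difference was -1.09 (standard error 0.21, limma adjusted p = 0.681). Nr4a1, an orphan nuclear receptor, had intensities of 419, 454 and 387 in Tsc2+/- cerebellum, against 691, 767 and 863 in WT cerebellum. Its log2 difference was -0.88 (standard error 0.14, limma adjusted p = 0.592), and the groups were apart.

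Dusp1, a phosphatase that inactivates MAP kinases, had intensities of 732, 727 and 1059 in Tsc2+/- cerebellum, against 1716, 1703 and 1668 in WT cerebellum. Here the WT mice were close together, and mouse 3 of the Tsc2+/- group stood above the other two while remaining below every WT mouse. The log2 difference was -1.04 (standard error 0.18, limma adjusted p = 0.592). Jun, the partner of Fos, had intensities of 1046, 1067 and 1143 in Tsc2+/- cerebellum, against 1562, 1555 and 1576 in WT cerebellum. The difference of Jun was smaller, -0.53 on the log2 scale (standard error 0.11, limma adjusted p = 0.695), but large against the spread of either group.

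Fosl2, Sik1 and Egr1 were the other members lower at an unadjusted p under 0.05. Fosl2, a Fos relative, had 236, 275 and 236 in Tsc2+/- cerebellum, against 329, 329 and 326 in WT cerebellum, a log2 difference of -0.40 (standard error 0.12). Sik1, a kinase that restrains CREB target genes, had 337, 374 and 324 in Tsc2+/- cerebellum, against 434, 421 and 564 in WT cerebellum (log2 difference -0.45, standard error 0.16). Egr1, a zinc finger transcription factor, had 569, 682 and 555 in Tsc2+/- cerebellum, against 714, 806 and 815 in WT cerebellum (log2 difference -0.37, standard error 0.14). The groups of all 8 genes were apart, as were those of 6.77% of all genes in this direction. Sik1 and Egr1 lost p under 0.05 without each of 3 and 4 of the 6 mice in turn, whereas the other 6 genes kept it without any one mouse. Egr1 and Dusp1 also lost it where all 16 cerebellum arrays shared 1 estimate of the spread, with limma p of 0.279 and 0.0657.

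**Figure D1:**
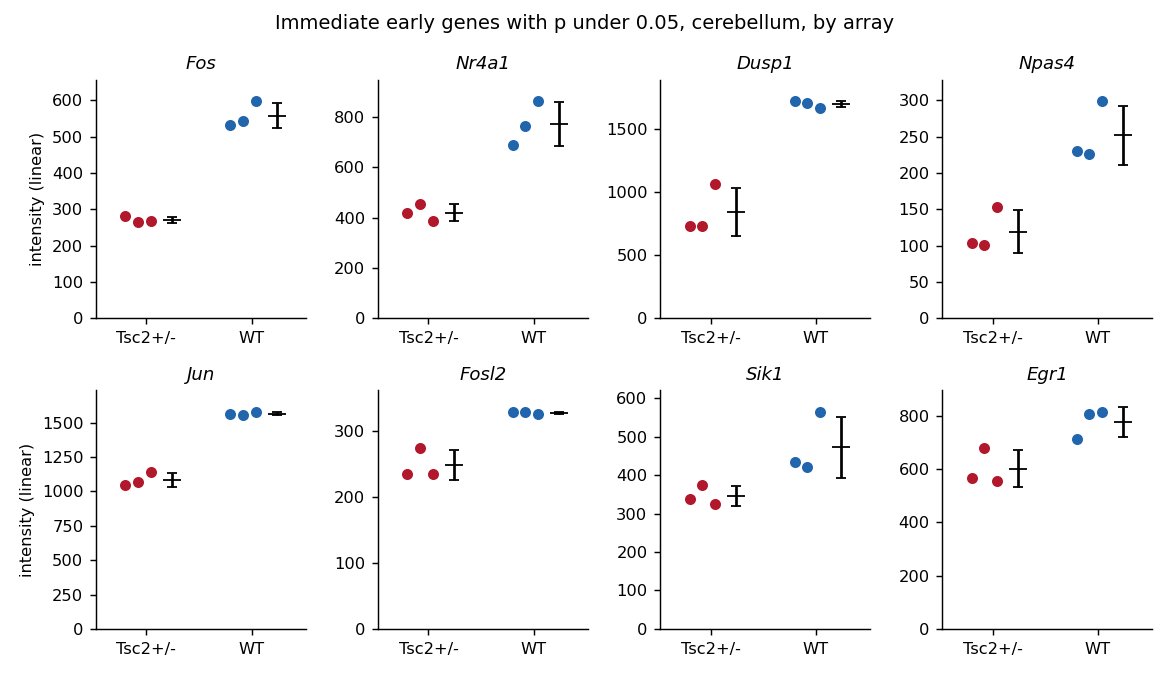
Linear intensity (vertical axes, from 0) of the 8 immediate early genes with an unadjusted limma p under 0.05, with 1 point for each array, Tsc2+/- on the left and WT on the right, and the mean with its SD (n = 3 each) beside the points. In each panel the 3 Tsc2+/- arrays lie below the 3 WT arrays, and Fos, at 264 to 281 against 533 to 597, had the smallest p.

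The other 23 immediate early genes did not pass. Nr4a3 and Nr4a2, relatives of Nr4a1, had lower means in Tsc2+/- cerebellum with overlapping groups. Nr4a3 had 761, 725 and 430 in Tsc2+/- cerebellum, against 945, 1222 and 682 in WT cerebellum (log2 difference -0.58, standard error 0.30). Arc, which acts at synapses and is a widely used marker of activity, had 260, 316 and 284 in Tsc2+/- cerebellum, against 307, 273 and 306 in WT cerebellum (log2 difference -0.05). Fosb and Junb had log2 differences of 0.11 and 0.07, and Egr2 and Egr3 of 0.06 and 0.05. The median over all 31 genes was -0.16 and 23 of the 31 values were negative, against a median of -0.02 over all genes measured. Without Tsc2+/- mouse 3 the median of the list was -0.10. Members of the list thus ranged from -1.09 for Npas4 to 0.21 for the highest, with Arc, Fosb and Egr3 near 0.

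Lists of genes that respond to related signals held no call at p under 0.05, where 2.2% of all genes were called. In lists of this size 0 calls are near that share. The lists were 15 later activity-regulated genes such as Bdnf and Nptx1 (median log2 difference -0.00), 17 glucocorticoid response genes (median -0.02), 19 heat shock chaperones (median -0.01) and 18 circadian clock genes (median -0.12). Bdnf, a growth factor induced after the first wave, had 249, 247 and 267 in Tsc2+/- cerebellum, against 276, 283 and 271 in WT cerebellum, a log2 difference of -0.12 (standard error 0.11) although the groups did not overlap. Dbp and Nr1d1, clock outputs that cycle over the day, had log2 differences of -0.24 and -0.28, with p of 0.143 and 0.0867. Of 48 MAP kinase pathway genes, Dusp1 was the only one called, which is near the 2.2% of all genes.

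Whether the effect was the same in the other model was tested by the difference of the 2 effects in 1 limma fit of the 16 cerebellum arrays. The Tsc2+/- effect was below the Fmr1-KO effect at an unadjusted p under 0.05 for 8 of the 31 immediate early genes, where 0.672% of all genes were, and above it for none, where 0.246% of all genes were. The list and the Tsc2+/- arrays are those that gave the calls above, so these counts are no independent test of them. For Fos the difference of effects was -1.60 (standard error 0.32, limma adjusted p = 0.545). In the Fmr1 experiment Fos had a lowest, median and highest intensity of 526, 555 and 970 in Fmr1-KO cerebellum, against 305, 423 and 625 in its WT cerebellum. All 3 Tsc2+/- mice lay below the 10 arrays of that experiment for Fos, Jun, Npas4 and Dusp1. This did not hold for Nr4a1, Fosl2, Egr1 and Sik1. The mice of that experiment had another background, and the share of all genes with such an order was not counted. The difference of effects was -1.27 for Npas4 (standard error 0.35), -1.25 for Nr4a1 and -0.55 for Jun (standard error 0.16). For Dusp1 it was -1.12 with a limma p of 0.109, and Dusp1 lay at 1369 to 5053 in Fmr1-KO cerebellum, against 1181 to 5402 in its WT cerebellum. The highest value of each group was that of mouse 1, and all other arrays were at 1898 or less. Mouse 1 was also the highest of each group for Npas4 (371 and 367) and Nr4a1 (1037 and 1041), but not for Fos. These genes thus varied strongly within a genotype, and the cause was not tested. Fmr1, the gene removed in the other model, was 983, 890 and 802 in Tsc2+/- cerebellum, against 905, 886 and 892 in WT cerebellum (log2 difference -0.01).

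**Figure D2:**
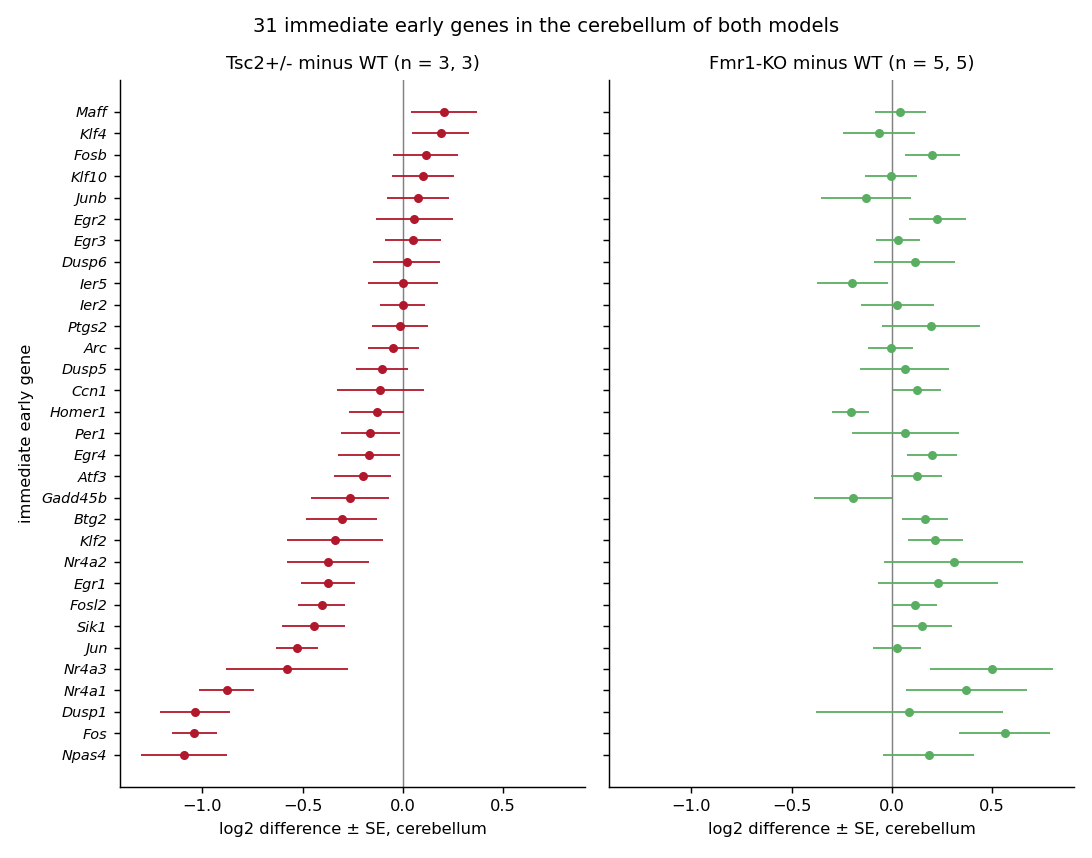
Log2 difference with its limma standard error (horizontal axes) for the 31 measured immediate early genes, in order of the Tsc2+/- difference, with Tsc2+/- minus WT cerebellum on the left (n = 3 each) and Fmr1-KO minus WT cerebellum on the right (n = 5 each). Npas4, Fos, Dusp1 and Nr4a1 lie between -1.09 and -0.88 on the left, and between 0.09 and 0.56 on the right.

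Against the blood of the same mice, the effect in cerebellum was lower for 4 immediate early genes at an unadjusted p under 0.05, where 1.93% of all genes were. They were Dusp1, with a cerebellum effect below the blood effect by 1.21 on the log2 scale (standard error 0.26, limma adjusted p = 0.988), Nr4a1, Fosl2 and Sik1. The differences of Fos (-0.90), Npas4 (-0.65) and Jun (-0.73) did not pass. The list and the Tsc2+/- cerebellum arrays are again those that gave the calls above. In blood Fos and Nr4a1 had log2 differences of -0.14 and -0.05, and Dusp1 and Jun of 0.17 and 0.20.

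Tsc2 itself had intensities of 713, 754 and 1000 in Tsc2+/- cerebellum, against 1125, 1176 and 1110 in WT cerebellum. The mean was 822 ± 155 in Tsc2+/- and 1137 ± 34.8 in WT cerebellum (SD, n = 3 each). The groups did not overlap, but mouse 3 of the Tsc2+/- group was much nearer to WT than the other two. The log2 difference was -0.48 (standard error 0.16), a 1.40-fold lower level, with an unadjusted limma p of 0.0213 and an adjusted p of 0.926. Without Tsc2+/- mouse 1, Tsc2+/- mouse 2 or WT mouse 2 the unadjusted p was 0.0719, 0.0766 and 0.0612, in that order, and by the methods' t-test it was 0.0813. Without Tsc2+/- mouse 3 the difference was -0.63. The probe set summarises probes along the transcript, and where they lie relative to the altered part of the gene is not given in the sources used here.

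The partners of tuberin were not called. Tsc1 had 638, 660 and 627 in Tsc2+/- cerebellum, against 654, 708 and 751 in WT cerebellum (log2 difference -0.13, standard error 0.11). Tbc1d7, the third subunit of the complex, had a log2 difference of -0.32 with overlapping groups. None of 9 subunits of mTOR complexes 1 and 2, 19 kinases upstream of the TSC complex, 17 Rag GTPases and lysosomal regulators or 17 S6 kinases and initiation factors passed p under 0.05, and their medians lay between -0.09 and -0.03. Of genes that mTORC1 is known to raise through ATF4 and SREBP, 0 of 27 ATF4 targets and 0 of 21 sterol synthesis genes passed. Of all genes 2.2% passed, so 0 calls in lists of this size are near that share. Sterol synthesis genes had a median of -0.16, with 17 of 21 negative. That median rested on single mice, since it was -0.01 without WT mouse 3 and -0.04 without Tsc2+/- mouse 1. Among the 40 measured genes nearest to Tsc2 on chromosome 17, 0 passed p under 0.05, the median was -0.09, and 7 had groups that did not overlap, all lower in Tsc2+/-, as did 6.77% of all genes.

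Most genes of the ribosome and of the respiratory chain had positive differences. Of these 1 passed p under 0.05, where 1.05% of all genes passed on the higher side. Of 55 cytosolic ribosomal protein genes, 47 had a higher mean in Tsc2+/- cerebellum, with a median log2 difference of 0.20. Rplp2, of the ribosomal stalk, was the only one at p under 0.05, with 421, 581 and 552 in Tsc2+/- cerebellum, against 267, 408 and 399 in WT cerebellum (log2 difference 0.55, standard error 0.22). Of 72 genes of the respiratory chain and ATP synthase, 66 were positive, where 44.2% of all genes were. Their median was 0.16, and 0 passed. Both lists also differed from mouse to mouse within a genotype. Relative to the mean of the 6 arrays, the median ribosomal gene stood at -0.16, 0.19 and 0.28 in the 3 Tsc2+/- mice, against -0.35, -0.06 and 0.08 in the 3 WT mice. The median respiratory gene stood at -0.20, 0.10 and 0.35 in Tsc2+/- mice, against -0.36, 0.05 and 0.10 in WT mice. In both groups mouse 1 was the lowest. Without WT mouse 1 the medians were 0.07 for the ribosome and 0.01 for the respiratory chain, and without Tsc2+/- mouse 3 they were 0.13 and 0.01.

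**Figure D3:**
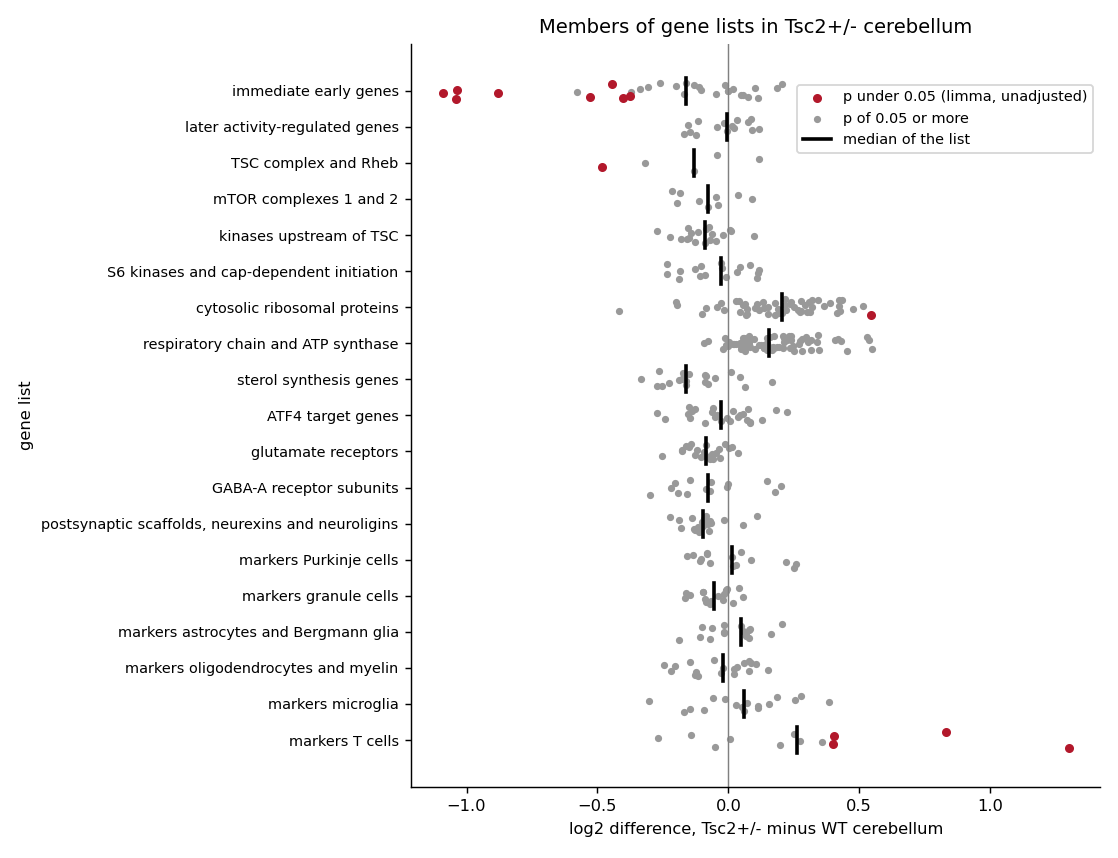
Log2 difference of Tsc2+/- minus WT cerebellum (horizontal axis) for each measured member of 19 gene lists, with members of unadjusted limma p under 0.05 in red, others in grey and the median of each list as a black bar. Immediate early genes hold 8 red points on the lower side, T cell markers 4 on the higher side, and the ribosomal and respiratory lists lie to the right of 0 with medians of 0.20 and 0.16 and 1 red point between them.

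Synaptic gene lists leaned slightly the other way without any call at p under 0.05, where 2.2% of all genes were called. Of 22 glutamate receptor genes 19 were negative (median -0.08), of 14 GABA-A receptor subunits 11 (median -0.08), and of 21 postsynaptic scaffolds, neurexins and neuroligins 19 (median -0.10). Gabra2, a GABA-A receptor subunit, had 743, 649 and 786 in Tsc2+/- cerebellum, against 844, 1058 and 793 in WT cerebellum (log2 difference -0.30, standard error 0.16). Nlgn3, a neuroligin, had 2595, 2631 and 2287 in Tsc2+/- cerebellum, against 2828, 3177 and 2761 in WT cerebellum (log2 difference -0.22, standard error 0.12).

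Defining markers of the cerebellum were high in all 6 arrays, and no marker of its main cell types was called. Gabra6, of granule cells, lay at 4110 to 4718 in Tsc2+/- cerebellum, against 3774 to 5493 in WT cerebellum, and was at most 15.5 in the blood of the same mice. Pcp2, of Purkinje cells, lay at 4386 to 4802 in Tsc2+/- cerebellum, against 3409 to 4530 in WT cerebellum. None of 15 Purkinje cell, 18 granule cell, 14 interneuron, 17 astrocyte and Bergmann glia, 19 oligodendrocyte, 17 microglia or 17 endothelial markers passed p under 0.05, and the medians of these lists lay between -0.05 and 0.06. In a list of this size 0 calls are near the 2.2% of all genes that passed. In tissue as a whole, fewer cells of a type and less RNA per cell cannot be told apart. The labels give female for every mouse whereas the methods state males, and Y-linked genes were expressed in all 6 arrays, with Kdm5d at 536 to 755. Xist, which is expressed in females, was at 44.5 to 65.9. The values of all 6 arrays are thus those of males.

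Of the markers of blood cells, 4 of T cells and 1 of red blood cells were higher in Tsc2+/- cerebellum at p under 0.05, at low intensity. Of 12 T cell markers 4 were higher at p under 0.05, where 1.05% of all genes were, and none lower. The marker lists too were chosen with earlier results of these data known. Cd3d, a chain of the T cell receptor complex, had 49.2, 50.6 and 47.1 in Tsc2+/- cerebellum, against 27.9, 18.5 and 15.1 in WT cerebellum (log2 difference 1.30, standard error 0.23, limma adjusted p = 0.592). Il7r, the receptor of interleukin 7, had 18.2, 19.1 and 20.3 in Tsc2+/- cerebellum, against 9.94, 14.6 and 8.63 in WT cerebellum (log2 difference 0.83). Il7r was higher in Fmr1-KO cerebellum as well (log2 difference 0.96, standard error 0.25), with a difference of effects of -0.13. Cd6 and Cd4 were the other two, with log2 differences of 0.40 and 0.40. The remaining markers went both ways and did not pass. Cd3e and Cd3g, chains of the same complex as Cd3d, had -0.05 and 0.20, and Cd2 had 0.01. Cd8a, Cd8b1 and Zap70 had 0.36, 0.27 and 0.25, against -0.27 for Cd5 and -0.14 for Lat. In blood, where T cells are part of the sample, the median of these markers was -0.51. Of 5 red blood cell markers, 1 was higher and 1 lower at p under 0.05, with a median of -0.16. Car1, a carbonic anhydrase abundant in red blood cells, had 48.1, 48.0 and 53.0 in Tsc2+/- cerebellum, against 28.1, 16.9 and 14.6 in WT cerebellum (log2 difference 1.38, standard error 0.25). Alas2, which makes haem in the same cells, went the other way, with 193, 156 and 143 in Tsc2+/- cerebellum, against 214, 226 and 243 in WT cerebellum (log2 difference -0.48, standard error 0.15). Slc4a1, the anion exchanger of the red cell membrane, Bpgm and Fech had log2 differences of -0.43, -0.16 and 0.04 and did not pass. None of 9 B cell and 14 neutrophil markers passed.

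**Figure D4:**
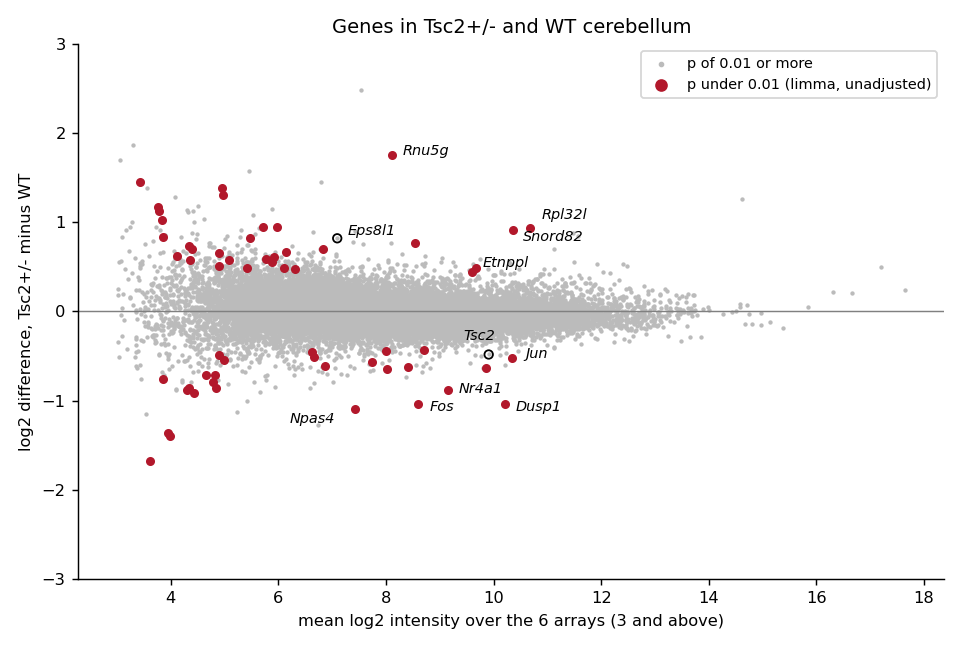
Mean log2 intensity over the 6 arrays (horizontal axis) and log2 difference of Tsc2+/- minus WT cerebellum (vertical axis) for 19863 genes with a mean of 3 or more, with those of unadjusted limma p under 0.01 in red and Tsc2 and Eps8l1 circled. At means of 6 and more the red genes are few, with Rnu5g highest at 1.76 and Npas4, Fos and Dusp1 lowest at -1.09 to -1.04, while at lower means the grey cloud widens.

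Over the whole array, 399 of 35556 probe sets (1.12%) had an unadjusted p under 0.01, 127 higher (0.357%) and 272 lower (0.765%) in Tsc2+/- cerebellum. With the 6 arrays centred on their medians the split was 201 and 251, and after quantile normalization among the 6 it was 282 and 308. The balance turned without WT mouse 1, to 546 higher and 236 lower, and with only probe sets of 1 gene name, to 72 higher and 56 lower. Of the 19938 genes, 62 (0.311%) had p under 0.01, 35 higher (0.176%) and 27 lower. By chance 356 probe sets and 199 genes were expected at this threshold, so the genes called were fewer than that. Of the 24 with a mean log2 of 6 or more, an intensity of 64, 10 were higher and 14 lower. The genes described next were required to have such a mean and groups that do not overlap, so their lack of overlap is no result.

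At a mean log2 of 6 or more, the largest named differences on the higher side were those of Rnu5g, Rpl32l and Snord82. Rnu5g, a U5 RNA of the spliceosome, had 400, 796 and 408 in Tsc2+/- cerebellum, against 128, 189 and 139 in WT cerebellum (log2 difference 1.76, standard error 0.31, limma adjusted p = 0.592). Snord82, a nucleolar RNA that guides methylation of other RNAs, had 1513, 2052 and 1861 in Tsc2+/- cerebellum, against 752, 1084 and 1056 in WT cerebellum (log2 difference 0.92, standard error 0.20). Snord14e and Snord37, of the same class, were lower, with log2 differences of -0.63 and -0.61, and the 31 Snord genes measured had a median of 0.00, 1 of them higher and 2 lower at p under 0.01. Rpl32l and Rpl10l, near copies of ribosomal protein genes that may share probes with them, had log2 differences of 0.93 and 0.49.

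Protein-coding genes on the higher side had smaller differences. Etnppl, an astrocyte enzyme that breaks down phosphoethanolamine, had 949, 878 and 878 in Tsc2+/- cerebellum, against 646, 721 and 626 in WT cerebellum (log2 difference 0.44, standard error 0.12). Siva1, an apoptosis-inducing factor, had 142, 180 and 167 in Tsc2+/- cerebellum, against 113, 112 and 103 in WT cerebellum (log2 difference 0.57, standard error 0.13). A brighter probe set of Siva1 did not follow, at 0.18 with a p of 0.247. Arsi, a sulfatase, and Ccin, a protein of the sperm head, had log2 differences of 0.47 and 0.67 at intensities of 63.0 to 101 and of 44.3 to 95.1.

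On the lower side, beside the immediate early genes, the largest named differences at such a mean were those of Fut11 and Pappa. Pappa, a protease that frees insulin-like growth factors from a binding protein, had 198, 205 and 217 in Tsc2+/- cerebellum, against 319, 333 and 321 in WT cerebellum. Its log2 difference was -0.65 (standard error 0.11, limma adjusted p = 0.592). Fut11, a fucosyltransferase, had 94.9, 116 and 104 in Tsc2+/- cerebellum, against 168, 215 and 171 in WT cerebellum (log2 difference -0.80, standard error 0.15). A brighter probe set of Fut11 had -0.23 with a p of 0.142. Tusc1 and Swap70, a regulator of actin and of Rac signalling, had log2 differences of -0.57 and -0.52. Pigk, a subunit of the enzyme that attaches GPI anchors, had 947, 793 and 906 in Tsc2+/- cerebellum, against 1111, 1158 and 1060 in WT cerebellum. It was the only one of 25 GPI anchor genes at p under 0.05, where 2.2% of all genes were.

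Eps8l1, a relative of the actin regulator Eps8, had 231, 187 and 139 in Tsc2+/- cerebellum, against 98.7, 80.7 and 136 in WT cerebellum. The groups did not overlap, but the lowest Tsc2+/- mouse was just above the highest WT mouse. Without any one of Tsc2+/- mice 1 and 2 and WT mice 1 and 2 the unadjusted p was 0.0531 to 0.0636, and by the methods' t-test it was 0.0555. The log2 difference was 0.82 (standard error 0.27, limma adjusted p = 0.926). The Tsc2+/- effect was above the Fmr1-KO effect by 0.96 on the log2 scale (standard error 0.30, unadjusted p = 0.00582, limma adjusted p of 1). Eps8 itself and Eps8l2 had log2 differences of -0.12 and 0.09. Of the other genes that the study names for these mice, Cts8, a cathepsin, had a log2 difference of 0.58 at intensities of 23.1 to 42.8, and Oxtr, the oxytocin receptor, of 0.29 with overlapping groups (138, 134 and 123 in Tsc2+/-, against 130, 96.3 and 98.6 in WT cerebellum). Taf1c, Fhad1, Pgam5, Piwil4, Tmem101 and Fam181b had p of 0.0587 or more. The study called these genes, Oxtr and Cts8 in a model of blood and cerebellum together, so its calls are not those of cerebellum alone. It lists Fhad1, Pgam5, Cts8, Piwil4, Tmem101 and Fam181b as also different between the WT mice of the Tsc2 and Fmr1 experiments. Other genes of that list are not described here.

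The largest differences that passed adjustment were in probe sets for which the platform table gives no gene. At an adjusted p under 0.05, 9 probe sets passed (0.0253%), 4 higher (0.0112%) and 5 lower (0.0141%), all unnamed. Probe set 10564209 had 145, 132 and 144 in Tsc2+/- cerebellum, against 3727, 3690 and 5969 in WT cerebellum, a 31.1-fold lower level (log2 difference -4.96, standard error 0.21, limma adjusted p = 0.00504). Probe set 10563959 had 114, 161 and 197 in Tsc2+/- cerebellum, against 1704, 1839 and 1802 in WT cerebellum, an 11.6-fold lower level (limma adjusted p = 0.0177). Both were above all 3 Tsc2+/- values in every array of the Fmr1 experiment, where 10564209 lay at 2001 to 4705 in Fmr1-KO cerebellum, against 2467 to 5022 in its WT cerebellum. In blood 10564209 was at most 79.4. Of the other 3 on the lower side, 10340174 had 160, 187 and 183 in Tsc2+/- cerebellum, against 580, 501 and 512 in WT cerebellum. Probe set 10563901 had at most 8.95 in Tsc2+/- cerebellum, against 30.8 to 39.2 in WT cerebellum. It was at 15.3 or more in every cerebellum array of the Fmr1 experiment. Its ID is close to those of 10563959 and 10564209, but where the 3 lie in the genome was not tested. The last, 10338583, had at most 0.0126 in Tsc2+/- and 14.5 in WT cerebellum. The IDs of 10340174 and 10338583 precede that of the first named probe set. The 4 that passed on the higher side had intensities of 14.9 or less in Tsc2+/- cerebellum. At the levels of these 4 and of 10338583, small differences in intensity become large log2 differences. Of the 399 probe sets at p under 0.01, 320 (80.2%) were unnamed. Of these, 253 came from the 6617 unnamed probe sets whose IDs precede that of the first named one, of which 3.82% were called, 211 of them lower in Tsc2+/- (3.19%).

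**Figure D5:**
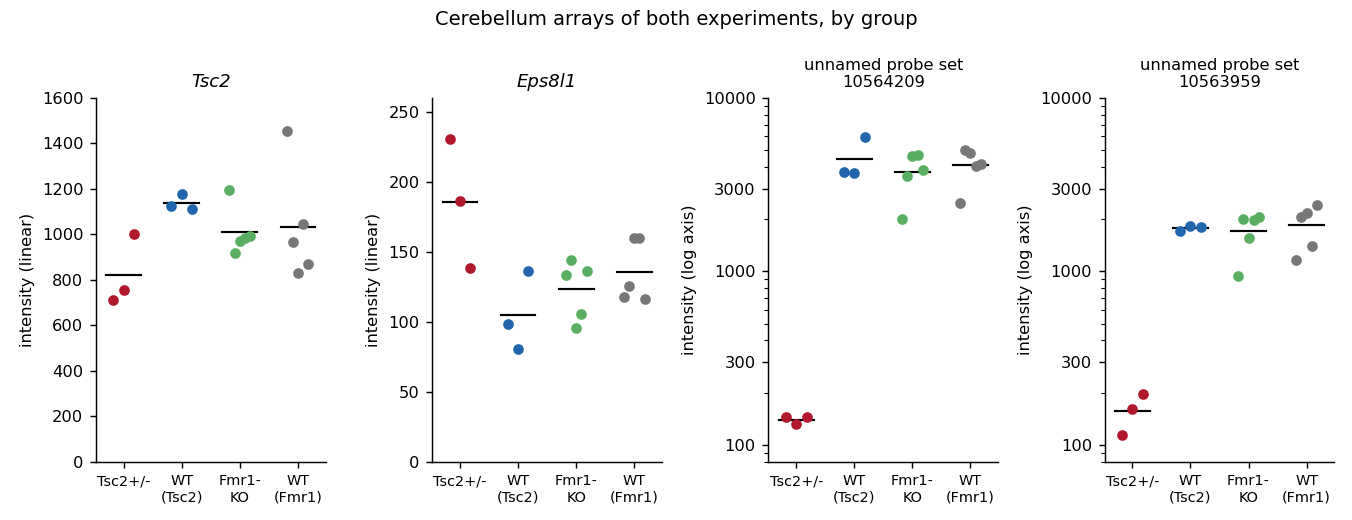
Intensity of Tsc2 and Eps8l1 (linear axes from 0) and of the unnamed probe sets 10564209 and 10563959 (log axes) in the cerebellum arrays, with 1 point for each array, a line at the group mean, and the groups in the order Tsc2+/- (n = 3), its WT (n = 3), Fmr1-KO (n = 5) and its WT (n = 5). The unnamed probe sets lie at 114 to 197 in Tsc2+/- cerebellum and at 943 or more in all other arrays, whereas Tsc2 at 713 to 1000 in Tsc2+/- overlaps the arrays of the Fmr1 experiment.

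The test of the cerebellum effect against the blood effect called 164 probe sets (0.461%) at p under 0.01 and 3 (0.00844%) after adjustment, all unnamed. Its 5 named genes of smallest p with a mean log2 of 6 or more were Slc8a1, Calr4, Mir384, Nmnat2 and Pcyox1l, none of which was called in cerebellum. For Slc8a1, a sodium-calcium exchanger, the cerebellum effect was below the blood effect by 1.36 on the log2 scale (-1.36) in 1 probe set and above it by 0.62 in a brighter one. The test against the Fmr1-KO effect called 173 probe sets (0.487%) at p under 0.01 and 3 (0.00844%) after adjustment, which included 10564209 and 10563959. After Fmr1 and Fos, its named genes of smallest p at such a mean were Snord14e, Slc16a10, a transporter of aromatic amino acids and thyroid hormone, and Mrpl47, of the mitochondrial ribosome, whose difference of effects was 0.67 in 1 probe set and 0.01 in a brighter one. Slc16a10 had 184, 167 and 161 in Tsc2+/- cerebellum, against 241, 261 and 209 in WT cerebellum, and its Tsc2+/- effect was below its Fmr1-KO effect by 0.59 on the log2 scale (standard error 0.15, limma adjusted p of 1).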

How the data were processed

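Total RNA of cerebellum and blood was hybridized to Affymetrix Mouse Gene 1.0 ST arrays, and the values the authors deposited are linear intensities of 35556 probe sets, made with PLIER (Affymetrix Power Tools, per the submitters' processing notes) after quantile normalization over all arrays of the series. Depth does not apply to arrays, and the number of arrays limits the precision. Nothing in the labels ties the arrays of a group to separate litters or batches.

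Intensities were taken to log2 with no offset and tested with limma 3.58.1 in R 4.3.3 (lmFit and eBayes, Tsc2+/- minus WT, 3 arrays each), with Benjamini-Hochberg adjustment over all probe sets. Counts use an unadjusted p under 0.01, the study's threshold, or under 0.05. A gene was represented by its brightest probe set with 1 gene name in the platform table (21789 probe sets had 1, 1621 several and 12146 none). Difference tests used the difference of cerebellum and blood in each mouse, and 1 fit of 16 cerebellum arrays. The limma fit was tested on simulated data with independent normal noise of the fitted spread. At an adjusted p under 0.05 it recovered 0% of 1.5-fold, 11.9% of 2-fold and 89.4% of 4-fold changes.

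The genes named were Tsc2, Tsc1 and most of those the study names for these mice. Added to them were the 12 largest differences in each direction at p under 0.01 with no overlap and a mean log2 of 6 or more (11 higher and 16 lower existed). The 3 members of smallest p of each list were also named, as were the 5 of smallest p with such a mean in each difference test. Other members of the lists, such as Arc, Fosb, Egr3, Gabra6 and Cd3e, were named after their values were seen. The comparison, the gene lists and the tests were chosen with earlier results of these data known. Lists not described in the report, each with the number of members at p under 0.05, were 18 glycolysis genes (0), 23 lysosome genes (0), 26 interferon-stimulated genes (0), 14 antigen presentation genes (0), 6 oxytocin and vasopressin genes (0), 80 cytokines and receptors (4 higher, 1 lower) and 33 cytochrome P450 and conjugating enzymes (3 higher), where 1.05% of all genes were higher and 1.15% lower. Promoters came from RefSeq.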

Additional observations from a re-analysis of the deposited data

Results flagged for a closer look

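Among named items with an unadjusted p under 0.05 in Tsc2+/- cerebellum, effects that differed from those of the Fmr1 experiment at an unadjusted limma p under 0.01 are given as Tsc2+/- effect minus Fmr1-KO effect on the log2 scale. They were negative for Fos (-1.60), Npas4 (-1.27), Jun (-0.55) and Fosl2 (-0.52) among immediate early genes, and for Snord14e (-0.996), Fut11 (-0.73) and Slc16a10 (-0.59). They were positive for Rnu5g (1.82), Snord82 (0.97), Eps8l1 (0.96), Mrpl47 (0.67) and Siva1 (0.57). None of these named genes passed adjustment, the smallest adjusted p being 0.545 for Fos and Snord14e. The unnamed probe sets 10564209 (-4.81, adjusted p = 0.000265) and 10563959 (-3.43, adjusted p = 0.00733) did. Fmr1, not called in Tsc2+/- cerebellum and removed in the other model, had 1.76 (adjusted p = 0.18).

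Among the same items, effects that differed between cerebellum and blood of the same mice at an unadjusted limma p under 0.01, as cerebellum effect minus blood effect on the log2 scale, were found for Dusp1 (-1.21), Swap70 (-0.94), Car1 (1.86), Cd3d (1.85), Olfr1463 (1.07) and probe set 10564209 (-4.01), each with an adjusted p of 0.988. Of genes not called in cerebellum, Slc8a1 (-1.36), Calr4 (-1.04), Mir384 (5.45), Nmnat2 (1.19) and Pcyox1l (-0.92) also had a p under 0.01 in this test. In blood, 10564209 was at 11.5 to 31.9 in Tsc2+/- mice, against 19.1 to 79.4 in WT mice.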

How the results depend on the processing

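The 399 probe sets at p under 0.01 became 183 with the methods' t-test, 128 with only probe sets of 1 gene name, 2726 with array weights, and 233 to 782 without any one mouse (641 without Tsc2+/- mouse 1, 233 without Tsc2+/- mouse 2, 782 without WT mouse 1, 251 without WT mouse 2). Array weights ranged from 0.330 to 12.3. Without the unnamed probe sets of low ID, an alternative chosen after seeing the data, there were 214. The 9 at an adjusted p under 0.05 became 3 with an intensity trend, with 16 added before log2 or with a mean log2 of 6 or more, 4 in the fit of 16 arrays or after quantile normalization, 5 without the low IDs, 0 with the methods' t-test or only 1-gene probe sets, and 0 to 9 without any one mouse (0 without WT mouse 2). The 62 genes at p under 0.01 became 39 with the trend, 164 after quantile normalization, 37 with a mean of 6 or more, 112 with only 1-gene probe sets, 1039 with array weights, and 25 to 280 without any one mouse (25 without Tsc2+/- mouse 2, 34 without WT mouse 2, 280 without WT mouse 1). The cause was not tested.

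Tsc2 was -0.48 by the methods' t-test (p = 0.0813 over 6 arrays in the methods' test, against an exact permutation p of 0.1) and -0.63 to -0.39 without any one mouse. Immediate early genes lower at p under 0.01 numbered 3 with the methods' t-test and 4 to 5 without any one mouse. The cerebellum and blood difference called 248 after quantile normalization, 257 with mouse as a random block, 99 with only 1-gene probe sets and 111 to 629 without any one mouse (629 without WT mouse 3). Its 3 adjusted calls became 0 with the offset, after quantile normalization, with a mean of 6 or more or with only 1-gene probe sets, and 0 to 6 without any one mouse. The difference from Fmr1-KO called 44 with only 1-gene probe sets, chosen after seeing the data, and 104 to 273 without any one mouse; its 3 adjusted calls became 0 and 3 to 4.

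The sign turned for Fmr1 (0.0223 after quantile normalization, 0.0167 with centred arrays, 0.00106 with array weights, and -0.0827 to 0.0645 without any one mouse), Fhad1 (-0.14 to 0.16 without any one mouse), Slc8a1 (-0.52 with array weights, and -0.34 to 0.25 without any one mouse) and Nmnat2 (-0.00587 after quantile normalization, and -0.00413 to 0.0697 without any one mouse). Of 1956 alternatives of 123 named genes, 1744 kept direction and side of the threshold.

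Same-numbered mice deviated together in 2 of 3 pairs (correlations 0.48, -0.23 and 0.43), so the numbers were not taken to pair them. With the replicate number as a block the counts were 493 probe sets, 6 adjusted, 75 genes, 10 and 5 immediate early genes, and Tsc2 -0.48, still under an unadjusted p of 0.05 in limma. With the same block the cerebellum and blood difference called 230 and 5.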

Other observations

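Choroid plexus, which lines the ventricle beside the cerebellum, differed from mouse to mouse within both genotypes. Ttr, its most abundant transcript, had 391, 11662 and 12343 in the 3 Tsc2+/- mice, against 5634, 148 and 10953 in the 3 WT mice. Relative to the mean of the 6 arrays the median of 14 choroid plexus markers was -0.88, 0.46 and 0.68 in Tsc2+/- mice, against 0.06, -0.82 and 0.88 in WT mice, and none of the 14 passed p under 0.05. None of 12 markers of meninges, 8 of oligodendrocyte precursors, 13 of deep nuclei and brainstem neurons or 12 of neighbouring midbrain and forebrain passed.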
